A study of Rattus norvegicus with 6 samples.

Results

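Transcripts of 10 genes that set the entry, release and re-uptake of calcium in smooth muscle were followed in rat vascular smooth muscle cells after knockdown of the long noncoding RNA MIAT. They are the pore subunits Cacna1c, Cacna1g and Cacna1h and the accessory subunits Cacna2d1 and Cacnb3 of voltage-gated calcium channels, the ryanodine receptor Ryr3, the IP3 receptors Itpr1, Itpr2 and Itpr3, and Atp2a2, the SERCA2 pump of the sarcoplasmic reticulum. The members were picked by symbol with earlier results of the knockdown against control difference in view, so their values in that difference are given as a description, with no test. All 10 were found among the 18631 genes of the deposited tables, and all 10 were among the 13423 genes kept by a filter on low counts. The knockdown group held 3 libraries of cells from vessel labelled MIAT knockdown, for which the labels give a 72 h treatment with siRNAs and ASOs together at 50 nM. The control group, called Scr control here, held 3 libraries whose titles begin with Scr and whose genotype label is wild type. The same treatment text stands on every library. What the control cells received, and how many cultures or animals were used, is not stated. Miat itself was not analysed here, which leaves the strength of the knockdown unmeasured.

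In smooth muscle, depolarisation opens L-type calcium channels, and the calcium that enters binds calmodulin and activates myosin light chain kinase. Hormones that act through phospholipase C produce IP3, which opens IP3 receptors on the sarcoplasmic reticulum, and ryanodine receptors on the same membrane release calcium in response to calcium. SERCA pumps calcium back into the reticulum and so refills the store. In cultured or injured vessels, smooth muscle cells that leave the contractile state are known to lose L-type channels and ryanodine receptors and to gain T-type channels.

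The 3 knockdown libraries held 18173111 to 18598394 counts and the 3 control libraries 17793811 to 20121161. The cell type label was checked on markers. All 9 smooth muscle markers were measured, with a summed level of 7550 to 10628 CPM in knockdown libraries and 8677 to 10757 CPM in control libraries, although the desmin gene Des was near 0. Of these, Myh11, the smooth muscle myosin gene, fell by 0.51 on the log2 scale (edgeR adjusted p = 0.0162 with the block) and Lmod1, an actin filament nucleator gene, fell by 0.30 (adjusted p = 0.0372). Only these 2 of 9 had an adjusted p under 0.05, where 21.6% of all tested genes did. Among the others, Acta2 was at -0.25, Tagln at -0.04 and Cnn1 at 0.01 (edgeR adjusted p = 0.0654, 0.700 and 0.929 with the block). Myocd was at -0.26, Cald1 at -0.16, Smtn at -0.16 and Des at -0.13 (edgeR adjusted p = 0.199, 0.115, 0.0855 and 0.906 with the block). CPM are counts scaled to library size, here after TMM scaling, a correction for library composition. Endothelial markers summed to 4.15 to 5.15 CPM in knockdown and 5.35 to 9.52 CPM in control libraries, with Cdh5 near 0, and Kdr fell by 1.02 on the log2 scale (edgeR adjusted p = 0.0148 with the block). Leukocyte markers, mostly Cd14 and Cd68, summed to 15.7 to 19.2 CPM in knockdown and 18.3 to 24.0 CPM in control libraries. Cd14 had a mean of 13.4 CPM in each group, and Ptprc was at 0 in all control libraries and near 0 in knockdown libraries. Cd68 had 5.36, 2.36 and 4.36 CPM in knockdown libraries, against 10.5, 7.01 and 4.39 CPM in control libraries. Its adjusted p was not under 0.05 (edgeR adjusted p = 0.0539 with the block). Skeletal muscle markers, mostly Myh1 and Acta1, summed to 27.9 to 79.8 CPM in knockdown libraries and 31.4 to 110 CPM in control libraries, with the number 1 library the highest of each group, and Myh1 fell by 0.35 on that scale (edgeR adjusted p = 0.0421 with the block). Neuron markers, mostly Tubb3, summed to 42.5 to 92.1 CPM in knockdown and 52.6 to 165 CPM in control libraries, and cardiac and Schwann cell lists to at most 3.40 and 7.07 CPM in any library. The part of all these markers in the differences below was not tested.

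Library titles carry a number, 1 to 3 in each group, and same-numbered libraries deviated from their group means together. Fits were therefore made both without the number and with it as a block. At an adjusted p under 0.05, the quasi-likelihood test of edgeR without the block called 0 of 13423 genes (0%, with 2576 at an unadjusted p under 0.05), where DESeq2 called 699. With the block edgeR called 2898, which is 21.6% of genes, 10.5% higher and 11.1% lower. Since separate cultures are not stated in the labels, all p-values speak only of the spread between these 6 libraries, which may be technical. Below, "rose" and "fell" are used for a gene outside the 10 members only where its adjusted p was under 0.05 with the block.

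Of the 10 members, 9 had a lower mean level in the libraries labelled MIAT knockdown and 1, Cacna1h, a higher one. In CPM, 8 were lower in 3 of 3 same-numbered pairs, as 28.5% of all tested genes were, and 1 was higher in 3 of 3 pairs, against 28.0% of all genes. The groups did not overlap in CPM for 3 members, Cacna1c, Cacna2d1 and Itpr2, each lower, as was so for 11.8% of all genes (26.0% in either direction). The median log2 fold change of the members was -0.42 without and -0.43 with the block, and that of all tested genes was -0.01 in both. These counts describe genes chosen on this contrast and are read no further. In bulk RNA, fewer cells that express a gene and less RNA per cell cannot be told apart.

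**Figure D1:**
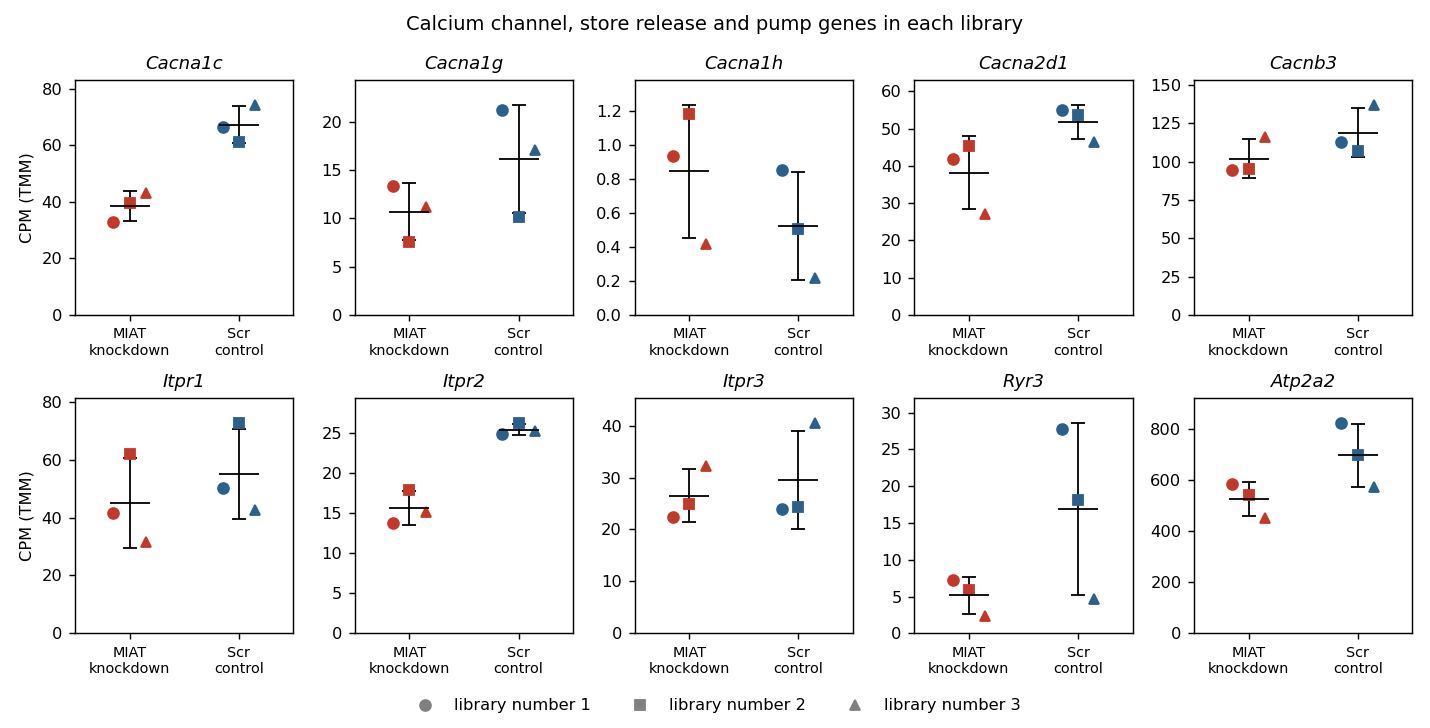
Level of each of the 10 genes in every library, in CPM after TMM scaling, with MIAT knockdown left of Scr control; marker shapes give the library number, and the horizontal line and bars are the mean and SD of 3 libraries. Cacna1c, Cacna2d1 and Itpr2 had no overlap between the groups, whereas Ryr3 and Cacna1h spread most widely within each group relative to their means.

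Per unit of transcript length the pump gene was far more abundant than the channel genes. Over the 6 libraries Atp2a2 lay at the 95.7th percentile of all tested genes by FPKM (counts scaled by gene length and library total) and Cacnb3 at the 86.1st, whereas Ryr3 lay at the 13.4th and Cacna1h at the 0.618th. Mean levels were 104 ± 14.2 FPKM in knockdown and 128 ± 26.8 FPKM in control libraries for Atp2a2 and 36.8 ± 4.46 against 39.7 ± 4.14 FPKM for Cacnb3 (SD, n = 3 each). Cacna2d1 followed at 10.8 ± 2.76 FPKM in knockdown and 13.6 ± 1.65 FPKM in control libraries. Cacna1c, at 4.83 ± 0.609 FPKM in knockdown and 7.83 ± 0.605 FPKM in control libraries, and Itpr1, at 4.67 ± 1.55 against 5.33 ± 1.57 FPKM, came next, and in knockdown libraries this pair did not differ beyond its spread. Itpr3 was at 3.13 ± 0.592 FPKM in knockdown and 3.21 ± 0.909 FPKM in control libraries, and the ranges of Itpr1 and Itpr3 overlapped in both groups. Itpr2, at 1.24 ± 0.148 against 1.88 ± 0.0774 FPKM, and Cacna1g, at 1.30 ± 0.382 against 1.82 ± 0.658 FPKM, were neighbours within their spread in both groups. Ryr3, at 0.348 ± 0.173 FPKM in knockdown and 1.07 ± 0.756 FPKM in control libraries, and Cacna1h, at 0.108 ± 0.0493 against 0.0629 ± 0.0398 FPKM, closed the order, although control library 1 had Ryr3 above the lowest control level of Cacna1g.

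Among the pore subunits, Cacna1c, which forms the L-type channel that carries most of the calcium entry of contraction, had 32.7, 39.6 and 43.1 CPM in knockdown libraries 1 to 3, against 66.4, 61.0 and 74.2 CPM in control libraries 1 to 3. Every knockdown library was below every control library. The fitted difference was -0.81 on the log2 scale (SE 0.0829) with the block and -0.80 (SE 0.124) without it, a 1.75-fold lower level, and within pairs 1, 2 and 3 it was -1.01, -0.62 and -0.78. Cacna1c supplied 46.3%, 59.3% and 58.4% of the summed FPKM of the 10 pore subunit genes in knockdown libraries, against 55.7%, 65.8% and 67.8% in control libraries. That summed level itself was 9.06, 8.25 and 9.26 FPKM in knockdown and 14.3, 10.9 and 12.3 FPKM in control libraries. Cacna1c was thus the leading pore subunit in all 6 libraries, with a smaller share in the knockdown library of each pair.

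The T-type pore subunits, which open at more negative voltages and are linked to proliferating smooth muscle, were less abundant. Cacna1g had 13.4, 7.51 and 11.2 CPM in knockdown libraries, against 21.2, 10.1 and 17.1 CPM in control libraries. Both number 2 libraries were low and the groups overlapped, while each knockdown library was below the control library of its number. The log2 difference was -0.58 (SE 0.107) with the block and -0.59 (SE 0.311) without it, and the unblocked value was -0.39 without knockdown library 2 and -0.35 without control library 1. Cacna1h rested on 18, 22 and 8 counts in knockdown and 15, 9 and 4 counts in control libraries. It was higher in the knockdown library of each pair, with a log2 difference of 0.71 and a SE of 0.446 with the block, and the groups overlapped. Leaving out 1 library at a time gave unblocked values of 0.31 (without control library 3) to 1.22 (without control library 1).

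Both accessory subunits were also at lower levels in the knockdown group. Cacna2d1, the alpha2-delta subunit that brings channels to the cell surface, had 42.0, 45.5 and 27.0 CPM in knockdown libraries, against 55.1, 53.7 and 46.4 CPM in control libraries. In CPM the groups did not overlap, but the highest knockdown library came within 1 CPM of the lowest control library. In FPKM, without TMM scaling, they did overlap, with knockdown library 2 at 12.7 and control library 3 at 11.8 FPKM. The log2 difference was -0.46 (SE 0.1001) with the block, and within pairs it was -0.39, -0.24 and -0.77. Without knockdown library 3 the unblocked difference was -0.24 in place of -0.44. Cacnb3, a cytosolic beta subunit that chaperones the pore subunit and tunes its gating, had 94.7, 94.9 and 116 CPM in knockdown libraries, against 113, 107 and 137 CPM in control libraries. Here the groups overlapped, and the log2 difference was -0.22 (SE 0.0539) with the block. Without control library 3 the unblocked difference was -0.11 in place of -0.22. Cacnb3 held 95.8% to 96.8% of the summed FPKM of the 4 beta subunit genes and Cacna2d1 92.9% to 96.1% of that of the 4 alpha2-delta genes in every library. The ratio of Cacnb3 to Cacna1c in FPKM was 8.30, 6.88 and 7.75 in knockdown libraries and 4.86, 5.03 and 5.30 in control libraries, with no overlap.

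**Figure D2:**
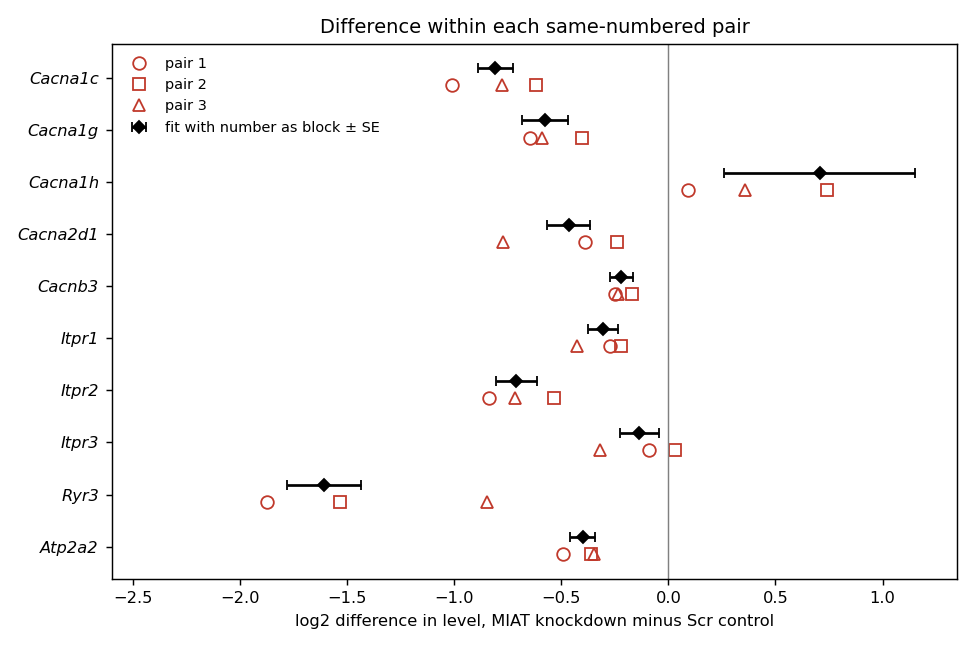
Log2 difference in level, MIAT knockdown minus Scr control, for each same-numbered pair (open markers, from CPM plus 0.5) and in the fit with the number as a block (filled diamonds, bars are the SE). The open markers of 8 genes lie below 0 in all 3 pairs, those of Itpr3 on both sides of 0 and those of Cacna1h above it.

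The IP3 receptors differed among themselves. Itpr2, a receptor known for high sensitivity to IP3, had 13.7, 17.98 and 15.2 CPM in knockdown libraries, against 24.9, 26.3 and 25.3 CPM in control libraries. The groups did not overlap, and the 3 control libraries lay within a coefficient of variation of 2.68%. The log2 difference was -0.71 (SE 0.0951) with the block, a 1.64-fold lower level. Itpr1, the IP3 receptor best known from smooth muscle and cerebellum, had 41.6, 62.1 and 31.6 CPM in knockdown libraries, against 50.3, 72.6 and 42.7 CPM in control libraries. Its levels followed the number more than the group, with number 2 highest in both, and the log2 difference was -0.31 (SE 0.0690) with the block and -0.29 (SE 0.283) without it. The unblocked value for Itpr1 was -0.59 without knockdown library 2, -0.09 without knockdown library 3 and -0.05 without control library 2, whereas the block fits without a pair gave -0.35 to -0.25. Itpr3 had 22.4, 24.95 and 32.3 CPM in knockdown libraries, against 23.9, 24.4 and 40.4 CPM in control libraries, and its log2 difference was -0.13 (SE 0.0899) with the block. In FPKM, without TMM scaling, Itpr3 had 2.69, 2.89 and 3.80 in knockdown libraries, against 2.69, 2.69 and 4.26 in control libraries. There only pair 3 was lower in knockdown, with pair 1 level. Only Itpr3, of the 10 members, had CPM pairs on both sides of 0. Without control library 3 its unblocked log2 difference was 0.14 in place of -0.16. Without any other single library it was -0.32 to -0.04.

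Per unit of length, the make-up of the IP3 receptor pool varied with the library number. The shares of Itpr2 and Itpr3 also differed between the groups within each pair, which only describes genes chosen on that contrast. Itpr1 supplied 53.7%, 59.6% and 39.6% of the summed FPKM of the 3 receptors in knockdown libraries and 52.1%, 60.3% and 39.5% in control libraries, so that same-numbered libraries were nearly alike. Itpr2 supplied 13.6%, 13.2% and 14.5% in knockdown libraries, against 19.8%, 16.7% and 17.9% in control libraries, with no overlap. Itpr3 supplied 32.8%, 27.2% and 45.9% in knockdown and 28.1%, 23.0% and 42.5% in control libraries, and in the number 3 libraries of both groups it passed Itpr1. The summed level of the 3 receptors was 8.20, 10.6 and 8.28 FPKM in knockdown libraries and 9.56, 11.7 and 10.02 FPKM in control libraries.

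Ryr3, the ryanodine receptor found at low levels in many smooth muscles, had the largest difference of the 10 members. It had 139, 111 and 45 counts in knockdown libraries, which is 7.24, 5.96 and 2.34 CPM, against 491, 324 and 86 counts and 27.8, 18.2 and 4.60 CPM in control libraries. Control library 3 lay below knockdown libraries 1 and 2, so the groups overlapped, while each knockdown library was below the control library of its number. The log2 difference was -1.61 (SE 0.173) with the block and -1.70 (SE 0.662) without it, and within pairs it was -1.87, -1.53 and -0.85. Of the summed FPKM of the 3 ryanodine receptor genes, Ryr3 held 68.2% to 90.2% in every library, with Ryr1, the skeletal muscle receptor, second. Set against all 6 release channels, Ryr3 made up 5.62%, 3.55% and 1.84% of the FPKM in knockdown libraries and 15.2%, 8.80% and 2.65% in control libraries. Myh1 and Myocd, a skeletal myosin gene and a smooth muscle transcription cofactor gene, were also highest in the number 1 libraries. Myh1 was at 55.9, 5.53 and 14.7 CPM in knockdown libraries and 79.3, 7.52 and 15.5 CPM in control libraries, and Myocd at 16.5, 4.02 and 4.88 against 18.3, 5.84 and 5.51 CPM, and their part in the Ryr3 difference was not tested.

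**Figure D3:**
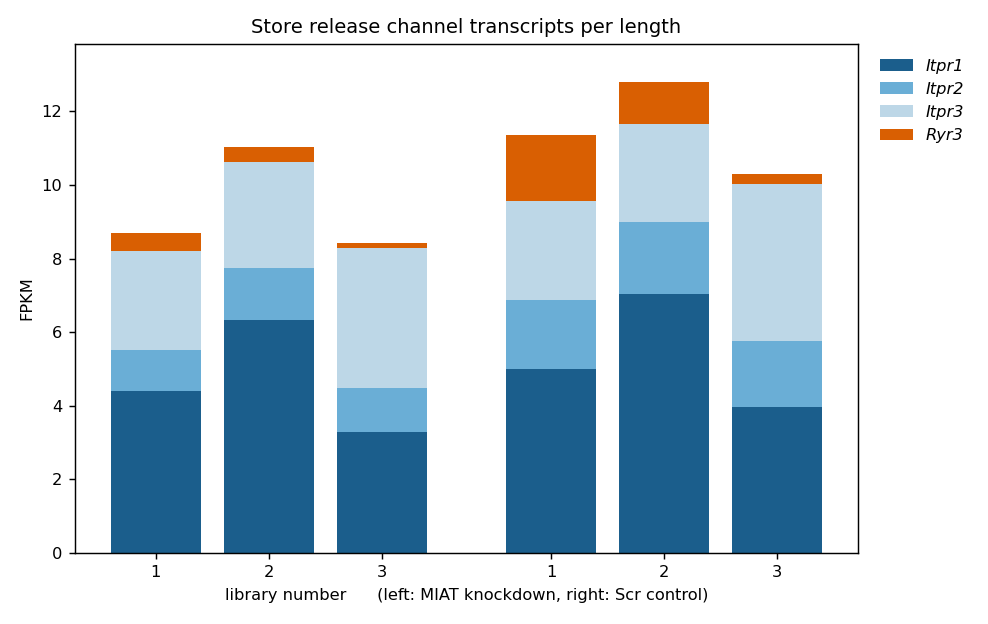
Stacked FPKM of the 3 IP3 receptor genes and Ryr3 in each library, MIAT knockdown on the left and Scr control on the right. Ryr3 (orange) is the thin top layer, thickest in control library 1, and Itpr3 is the thickest IP3 receptor layer in both number 3 libraries.

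Atp2a2, whose product refills the store, had 584, 543 and 452 CPM in knockdown libraries, against 822, 697 and 575 CPM in control libraries. The groups overlapped by a narrow margin, since knockdown library 1 lay above control library 3. The log2 difference was -0.40 (SE 0.0572) with the block and -0.41 (SE 0.157) without it, and within pairs it was -0.49, -0.36 and -0.35. Atp2a2 supplied 99.4% to 99.9% of the summed FPKM of the 3 SERCA genes in every library.

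The members were then compared between library numbers, a contrast within the groups. It comes from the same fit as the blocked knockdown against control difference and shares its residual spread. The count of members that passed is therefore not independent of how they were chosen. The labels do not say what the numbers stand for. Number 3 was tested against number 1 by edgeR with group in the model. The test called 2520 genes, which is 18.8% of those tested, 8.62% higher and 10.2% lower in number 3. Of the members, 6 of 10 passed, 2 higher and 4 lower. Ryr3 was lower, at 2.34 CPM in knockdown library 3 and 7.24 CPM in knockdown library 1, and at 4.60 and 27.8 CPM in control libraries 3 and 1. Its log2 difference was -2.21 (SE 0.221, adjusted p = 4.52e-04). Atp2a2 was lower by a log2 difference of -0.44 (SE 0.0701, adjusted p = 0.00338), Cacna2d1 of -0.43 (adjusted p = 0.0435) and Itpr1 of -0.31 (adjusted p = 0.0359), by edgeR. Itpr3 was higher by 0.65 (SE 0.110, adjusted p = 0.00476) and Cacnb3 by 0.29 (adjusted p = 0.0182), by the same test. The 6 differed in this direction in both groups, but a call in a fit with a shared number effect favours such agreement. Both groups also shared a direction for each member that did not pass. Of all tested genes, called or not, 37.2% were lower and 33.5% higher in both.

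In edgeR's test the other 4 members did not pass between numbers. Itpr2 had a log2 difference of 0.08 with a SE of 0.117 (adjusted p = 0.695), Cacna1c of 0.27 with a SE of 0.101 (adjusted p = 0.1002), Cacna1g of -0.28 with a SE of 0.126 (adjusted p = 0.158) and Cacna1h of -1.52 with a SE of 0.578 (adjusted p = 0.104). For Cacna1c and Itpr2 the difference between groups, at -0.81 and -0.71, was the larger in size, as it was for Cacna1g and Cacna2d1. For Ryr3, Itpr3, Cacna1h, Cacnb3, Atp2a2 and Itpr1 the difference between numbers was the larger, by little for Atp2a2 and Itpr1. Whether these sizes differ was not tested. The calls of Cacna2d1, Cacnb3 and Itpr1 ended in DESeq2 and when the number 2 libraries were left out of the edgeR fit, which left 3 of 10 past the threshold in each.

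**Figure D4:**
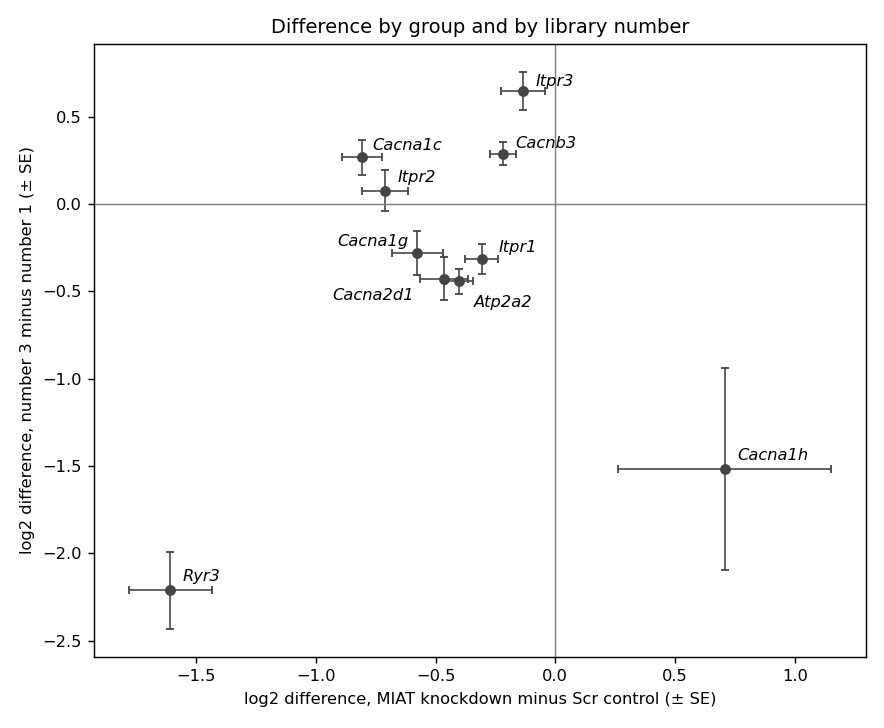
Log2 difference between MIAT knockdown and Scr control (horizontal) against log2 difference between number 3 and number 1 libraries (vertical) for the 10 genes, with SE from the edgeR fit that holds both. Ryr3 is far from 0 on both axes, Cacna1c and Itpr2 lie left of the centre near 0 on the vertical axis, and Itpr3 lies above it.

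Over the 6 libraries the log2 levels of 31 of the 45 pairs of members correlated positively and those of 14 negatively, with a median r of 0.36. The highest values were r = 0.977 for Ryr3 and Atp2a2 and r = 0.936 for Cacna1c and Itpr2, and the lowest was r = -0.905 for Cacna1h and Cacnb3. These are descriptions over 6 libraries that share the same groups and numbers. The members were also chosen with the group difference in view, and most were lower in the knockdown group, which favours positive values. Promoter windows of the 2 pairs above r = 0.9 are shown because their levels ran together, from RefSeq (GRCr8, read on the gene's strand, 250 bases before to 50 after the start). The build of the authors' own files is not stated. Capitals mark GGGCGG on either strand, the core of the GC box bound by SP1.
Ryr3 (chr3:120433416-120433715, minus strand): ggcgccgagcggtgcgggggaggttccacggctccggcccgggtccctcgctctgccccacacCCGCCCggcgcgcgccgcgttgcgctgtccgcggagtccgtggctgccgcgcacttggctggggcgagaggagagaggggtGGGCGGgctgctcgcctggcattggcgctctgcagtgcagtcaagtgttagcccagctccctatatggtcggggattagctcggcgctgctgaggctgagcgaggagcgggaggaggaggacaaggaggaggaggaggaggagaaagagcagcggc
Atp2a2 (chr12:39733269-39733568, plus strand): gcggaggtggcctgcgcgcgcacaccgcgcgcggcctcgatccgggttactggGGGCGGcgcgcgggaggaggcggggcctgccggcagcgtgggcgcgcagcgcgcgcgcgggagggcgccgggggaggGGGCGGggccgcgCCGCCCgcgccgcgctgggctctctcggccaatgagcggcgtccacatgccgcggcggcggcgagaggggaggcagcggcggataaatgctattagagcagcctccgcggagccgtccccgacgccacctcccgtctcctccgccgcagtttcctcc
Cacna1c (chr4:154051699-154051998, minus strand): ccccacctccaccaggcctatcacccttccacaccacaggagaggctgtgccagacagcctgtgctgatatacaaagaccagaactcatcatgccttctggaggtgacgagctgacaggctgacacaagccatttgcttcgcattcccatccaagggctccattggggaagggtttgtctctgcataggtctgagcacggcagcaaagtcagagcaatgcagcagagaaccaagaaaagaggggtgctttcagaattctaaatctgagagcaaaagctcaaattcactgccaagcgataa
Itpr2 (chr4:181134818-181135117, minus strand): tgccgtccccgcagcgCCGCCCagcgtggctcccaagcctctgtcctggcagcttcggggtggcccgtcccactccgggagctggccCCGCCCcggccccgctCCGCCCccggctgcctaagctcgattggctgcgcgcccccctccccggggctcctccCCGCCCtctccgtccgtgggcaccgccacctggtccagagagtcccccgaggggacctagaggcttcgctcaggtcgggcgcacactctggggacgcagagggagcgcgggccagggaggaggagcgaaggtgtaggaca
Windows of 8 of the 10 members were found, 11 windows in all, of which 2 of the 3 for Cacna2d1 overlap over most of their length. Ryr3 has 2 windows, of which the one with more copies of the motif is printed. GGGCGG stood in at least 1 window of 6 members and in 9 of the 11 windows (81.8%), against 33.1% of 33469 rat windows of 300 bases. The printed Cacna1c window held 0 copies, as did that of Itpr1, and that of Itpr2 held 4. Member windows were also rich in G and C, with a median of 75.0% against 51.7% over all windows. The CArG box, the site of serum response factor in smooth muscle genes, was found on neither strand of the 11 windows and in 1.64% of all windows. The E-box CACGTG, which overlaps neither motif, stood in 1 member window, that of Itpr3, and in 6.42% of all windows.

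The genes outside the list whose log2 levels were most like those of the 3 most abundant members were named among 10477 genes with a mean of at least 5 CPM. For Atp2a2 they were Gramd1b (r = 0.992), Usp45 (0.991) and Wdr59 (0.990). For Cacnb3 they were the complement protease gene C1r (0.9996), Mrgprf (0.999) and the xanthine dehydrogenase gene Xdh (0.999). For Cacna2d1 they included Ccdc8 (0.996) and Dock5 (0.992). Over 6 libraries such values are common, with 265, 388 and 205 genes above r = 0.9 for Atp2a2, Cacnb3 and Cacna2d1.

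Beyond the 10 members, 109 further calcium handling genes in 8 lists were tested. In the block fit 6 genes rose and 11 fell, while 92 were not past the threshold, a share of 15.6% called against 21.6% of all genes, and without the block 0 passed in edgeR, 10 of them at an unadjusted p under 0.05, while DESeq2 called 4. Their median log2 fold change was -0.06 with and without the block. Only 6 of the 17 called genes, Akap12, Irag1, Asph, Itpkc, Plcb4 and Mylk, stayed past the threshold in each block fit that left out a pair. In DESeq2 with the block the calls of Rrad (log2 fold change 0.63), Sdf4 (-0.20), Camkk1 (0.56), Mcu (0.20) and Vdac3 (0.17) ended, and with total count scaling those of Nucb1, Calr, Sdf4 and Camk2d. The Sdf4 call also ended without the low-count filter.

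None of the 10 tested genes among the other channel subunits passed, and their median was -0.20. Cacna1b, the N-type pore subunit and the most abundant of them, had 7.91, 8.80 and 8.36 CPM in knockdown libraries and 15.5, 9.99 and 8.73 CPM in control libraries, a log2 difference of -0.42 (SE 0.181). Of 12 channel regulators 2 rose and 1 fell. Akap12, a scaffold that anchors protein kinase A, rose 1.36-fold, at 638, 528 and 311 CPM in knockdown libraries against 455, 424 and 213 CPM in control libraries (edgeR adjusted p = 0.00344 with the block). Rrad, a small GTPase known to inhibit L-type channels, rose 1.55-fold (adjusted p = 0.0200) at 16.2, 6.82 and 4.98 CPM against 10.8, 4.94 and 2.62 CPM, by the same fit. Stac, an adaptor that holds L-type channels at the membrane, fell 2.30-fold (adjusted p = 0.0119) but at only 1.51, 1.13 and 2.13 CPM against 3.12, 3.20 and 4.60 CPM. Rrad also had an unblocked log2 difference of -0.05 without knockdown library 1. The Rrad call ended without pair 1 or pair 2, at log2 fold changes of 0.68 and 0.72, and the Stac call without pair 2, at -1.08.

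Of 18 store release channels and partners 3 fell and 0 rose. Ryr1 fell 2.80-fold in the block fit of edgeR (adjusted p = 0.0183), on 25, 12 and 18 counts in knockdown libraries against 96, 32 and 29 counts in control libraries. Irag1, the substrate through which cGMP kinase restrains IP3 receptors, fell 1.48-fold (adjusted p = 0.00199), at 106, 86.6 and 55.4 CPM against 163, 116 and 86.7 CPM. Asph, whose locus encodes junctin and junctate of the reticulum besides an aspartate hydroxylase, fell 1.30-fold (adjusted p = 0.00473), at 88.0, 84.7 and 79.1 CPM against 118, 103 and 106 CPM. The Ryr1 call ended without pair 1, at a log2 fold change of -1.08, and without pair 2, at -1.48.

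None of 8 pumps and exchangers passed. Atp2b1, the plasma membrane calcium pump and the most abundant of them, had 166, 154 and 96.4 CPM in knockdown and 162, 144 and 98.7 CPM in control libraries. Its log2 difference was 0.03 (SE 0.0549) between groups and -0.75 between numbers 3 and 1 (edgeR adjusted p = 2.93e-04). Among 18 genes of IP3 production and breakdown 1 rose and 2 fell. The phospholipase C genes Plcb1 and Plcb4 fell 1.89-fold and 1.48-fold (edgeR adjusted p = 0.0174 and 0.00316 with the block). Plcb1 was at only 3.80, 2.58 and 1.51 CPM in knockdown libraries against 6.01, 5.33 and 3.27 CPM in control libraries, with overlap. Plcb4 stood at 55.8, 51.0 and 69.5 CPM in knockdown libraries against 77.4, 69.6 and 118 CPM in control libraries. Itpkc, a kinase that phosphorylates IP3 and so ends its signal, rose 1.51-fold (adjusted p = 0.00749), at 29.0, 21.9 and 25.9 CPM against 17.6, 17.5 and 15.6 CPM with no overlap. The Plcb1 call ended without pair 1, at -1.07, and without pair 2, at -0.86.

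**Figure D5:**
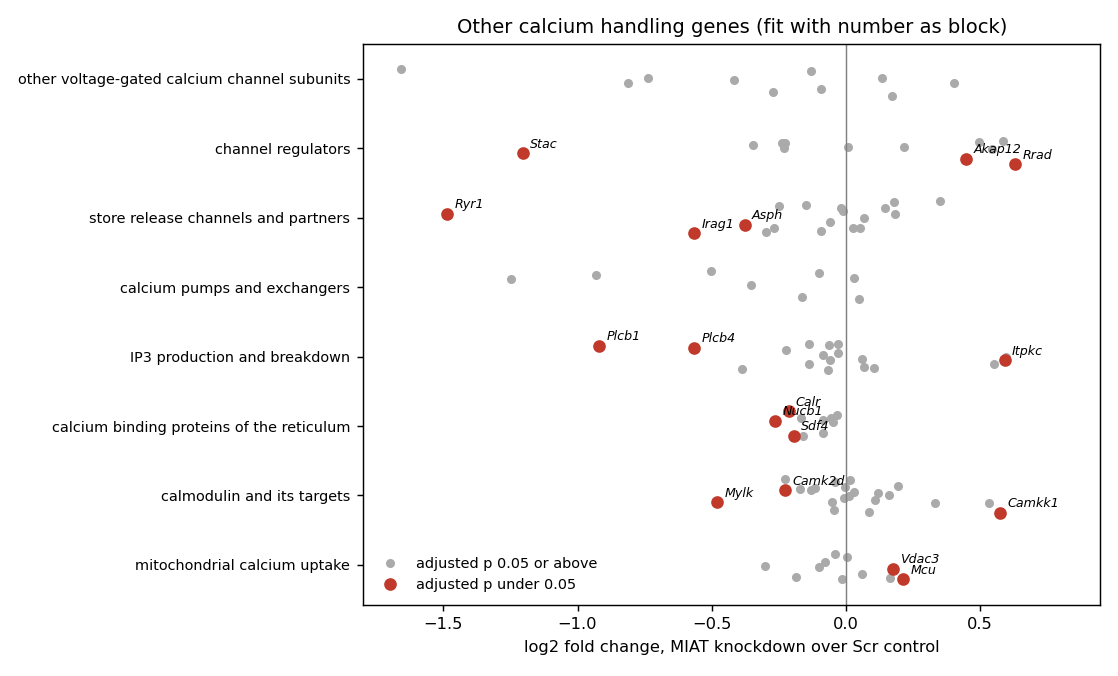
Log2 fold change, MIAT knockdown over Scr control, of 109 other calcium handling genes in 8 lists, from the edgeR fit with the number as a block; filled red points are genes with an adjusted p under 0.05, 6 higher and 11 lower, and are named. Most points lie near 0, and the lists of channel subunits and of pumps and exchangers hold no red point.

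Of 10 calcium binding proteins of the reticulum, 3 fell in edgeR's block fit, Nucb1 by 1.20-fold (adjusted p = 0.0186), Calr by 1.16-fold (adjusted p = 0.0297) and Sdf4 by 1.14-fold (adjusted p = 0.0496), and their calls ended without pair 1 (log2 fold changes -0.22, -0.19 and -0.13), without pair 2 (-0.33, -0.25 and -0.24) and with total count scaling (-0.16, -0.10 and -0.09). Of 22 genes of calmodulin and its targets 1 rose and 2 fell. Mylk, which encodes myosin light chain kinase, fell 1.39-fold (edgeR adjusted p = 0.0147 with the block), at 58.1, 96.8 and 36.5 CPM in knockdown libraries against 76.1, 114 and 65.5 CPM in control libraries, and its log2 fold change of -0.48 was -0.31 without pair 3. Camk2d, the calmodulin kinase II gene with the highest FPKM here, fell 1.17-fold (adjusted p = 0.0204) and Camkk1 rose 1.49-fold (adjusted p = 0.0223) in edgeR with the block. These calls ended without pair 1 (-0.19 and 0.59) and without pair 2 (-0.24 and 0.68). With total count scaling the Camk2d call ended too, at -0.12. Of 11 genes of mitochondrial calcium uptake 2 rose in that fit, the uniporter gene Mcu by 1.16-fold (adjusted p = 0.0494) and the outer membrane channel gene Vdac3 by 1.13-fold (adjusted p = 0.0430). Both calls ended without pair 1 (0.23 and 0.18) and without pair 2 (0.24 and 0.17), and that of Mcu also without pair 3 (0.18). With total count scaling the log2 fold changes of Mcu and Vdac3 were 0.32 and 0.28, in place of 0.21 and 0.18.

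Between numbers 3 and 1, 29 of the 109 genes passed in edgeR, 26.6% against 18.8% of all genes, 13 higher and 16 lower. Rrad, Akap12, Irag1, Plcb1 and Plcb4 were the 5 that passed both between groups and between numbers. Rrad and Akap12 were lower in number 3 by log2 differences of -1.84 and -1.07 (edgeR adjusted p = 4.39e-04 and 1.01e-04), and both were higher in the knockdown group. Irag1 was lower by -0.92 (adjusted p = 2.33e-04) and Plcb1 by -1.08 (adjusted p = 0.0219), and both were lower in the knockdown group, by edgeR. Plcb4 was higher in number 3 by 0.47 (edgeR adjusted p = 0.00952) and lower in the knockdown group.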

How the data were processed

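Polyadenylated RNA of 6 libraries, 3 MIAT knockdown and 3 Scr control, was measured. The authors deposited whole-number counts per gene symbol, with no normalization, and FPKM values. Each deposited FPKM value above 0 (100% of them) was its count over 1 gene length and the library total, to a relative tolerance of 1e-06. For the aligner, counter, strand setting, genome build and filters, the entry is: not given in the sources used here. Without a stated strand setting, reads of overlapping antisense genes cannot be told apart.

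Counts were filtered with filterByExpr at a minimum count of 10, scaled with TMM and tested with edgeR 4.0.16 under R 4.3.3 by the quasi-likelihood test at 0.05 after Benjamini-Hochberg adjustment across the 13423 genes. The basic fit had no covariate, and a further fit took the library number as a block. Same-numbered libraries had deviations from their group means that correlated at 0.517 to 0.676 across genes, against -0.562 to -0.0521 for other numbers, and the block is given on that ground. No label states the pairing, which rests on this correlation and the shared numbers. The biological coefficient of variation was 19.7% without and 8.09% with the block, on 4 and 2 residual degrees of freedom. Counts of libraries within a group gave chi-square values of 17.1 to 68.8 over their degrees of freedom, so none was a copy. The fitting steps were tested on simulated data. Pair differences are log2 of CPM plus 0.5.

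The members and the lists were chosen with earlier results of these data known. Genes named besides the members are, in each list, up to 3 genes past the threshold with the block, taken by size of log2 fold change, or the most abundant where none passed, and the 3 genes with the highest Pearson correlation with each of the 3 members highest in FPKM, of which 1 is not reported here. Genes outside this rule (Myh1, Myocd and the markers) were named after their values were seen. Alternatives were DESeq2 1.42.0, limma 3.58.1 on log2(FPKM + 1) and log2(FPKM + 0.1), other scalings and filters, and leaving out libraries or pairs. All 10 member symbols matched RefSeq.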

Additional observations from a re-analysis of the deposited data

How the results depend on the processing

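Without the block, 0 of all genes and 0 of the 109 other calcium handling genes were called in edgeR with each other scaling, without the low-count filter, in limma on log2(FPKM + 1) and log2(FPKM + 0.1), and without each library in turn, whereas DESeq2 called 699 and 4. With the replicate block the counts were 2898 and 17, in DESeq2 1590 and 12, with total count scaling 3641 and 22, without the low-count filter 3128 and 18, and the count without pair 1, 2 or 3 was 1195, 736 or 4124 for all genes and 7, 6 or 28 for the calcium handling genes. Total count scaling with the block moved the median over all genes to a log2 fold change of 0.10, that of the members to -0.33, and the higher calls to 77.5% of all calls against 48.7%, so directions are relative to TMM. Of the 10 members, 9 were lower and Cacna1h higher in every fit that tested all 10, except that without control library 3 Itpr3 was higher too (log2 0.14). Cacna1h left the filter without pair 1. Between numbers 3 and 1, 2520 genes and 6 members passed, 1593 and 3 in DESeq2 and 1452 and 3 without replicate 2. The fits have 4 or fewer residual degrees of freedom, and Cacna1h, at 4 to 22 counts, is limited by depth. The causes of these changes were not tested.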
